A study of Homo sapiens with 6 samples.

Results

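RNA of HSC3 cells, a carcinoma line grown from a squamous tumour of the human tongue, was compared between the array of cells given siRNA against MIA and the control array. The gene probes of both arrays were taken where the scanner software had flagged the spot as good on each, which held for 26688 of the 53103 gene probes that were masked on no array, or 50.3%. Of these, 15054 were named for a single gene and covered 12802 of the 18757 genes with a named probe. The set has 6 one-colour arrays of HSC3 RNA, 1 each for control and for cells given siRNA against MIA, MIA2, TANGO, MATE2 or LEMD1, where TANGO stands for MIA3 and MATE2 for SLC47A2. The deposited design describes the control cells as given a control siRNA, whereas the array methods describe the cells compared with the LEMD1 knockdown as untreated, so the control may or may not share the transfection. The methods give a general siRNA amount, transfected with Lipofectamine 2000, but name no siRNA against MIA, whose sequence and time of harvest were not given in the sources used here. Each condition has 1 array and no replicate, so ratios carry no error and no test was possible, and precision is limited by the number of arrays. Levels below are normalized intensities on a linear scale, ratios are log2 of the MIA siRNA level over the control level, and a change means a ratio of at least 2-fold, or 1 in size on the log2 scale.

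MIA, melanoma inhibitory activity, is a small protein with an SH3-like fold that melanoma cells secrete and that binds fibronectin and the integrins that attach cells to it. MIA2, MIA3 and OTOR are its relatives, of which MIA3 and long forms of MIA2 sit at the exit sites of the endoplasmic reticulum and serve the export of collagens and other large cargo. An siRNA guides the cell's own silencing complex to a matching transcript, which is then cut, so the target transcript is the first thing to read on such an array.

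MIA itself could not be read. Its 1 probe was near background on all 6 arrays, with 9.93 on the control, 14.1 on MIA siRNA, 21.1 on MIA2 siRNA, 17.5 on TANGO siRNA, 16.2 on MATE2 siRNA and 9.97 on LEMD1 siRNA. All 6 values lie under the lowest good signal of the control array, 34.2, so no ratio is given and the knockdown could not be checked. OTOR was near background on all 6 arrays as well, and no probe was named for MIA3. MIA2 had 1 probe near background throughout and 1 good probe, at 155 on the control and 138 on MIA siRNA (log2 ratio -0.17). The targets of the other siRNAs moved little here, with SLC47A2, which exports organic cations, at 1510 and 1334 (-0.18) and LEMD1, a cancer-testis antigen, at 278 and 195 (-0.51). Over the arrays of MIA2, TANGO, MATE2 and LEMD1 siRNA, the good MIA2 probe read 169, 136, 238 and 175, SLC47A2 1575, 58.95, 79.6 and 1703, and LEMD1 42.3, 3192, 1011 and 27.6. The low levels were not limited to the array of the matching siRNA, since SLC47A2 was lowest on TANGO siRNA and LEMD1 was near background on MIA2 as well as LEMD1 siRNA, and MIA2 was not lower than control on its own array.

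Across the transcriptome the MIA siRNA array lay close to the control. Of the good probes, 85 were at least 2-fold lower (0.318%) and 157 at least 2-fold higher (0.588%). By gene, with the brightest good probe taken, 34 were lower (0.266%) and 50 higher (0.391%). The median log2 ratio was -0.01 and its robust SD, taken from the median absolute deviation, was 0.287. Within 1.5-fold lay 93.4% of probes and within 1.2-fold 63.7%, and the extremes were -2.30 and 1.79. At a 3-fold limit 9 probes were lower and 10 higher. The spread narrowed with signal. When the probes were split by brightness into 10 equal groups, the robust SD was 0.315 in the dimmest and 0.239 in the brightest, where 0 probes were lower and 12 higher. Changes made up 0.262% of the dimmest group, at most 1.99% of any and 0.450% of the brightest. Signals in the dimmest group, averaged over the pair, ran from 37.7 to 62.4. The lowest good signals were 34.2 on the control and 32.5 on MIA siRNA. A filter for good spots on both arrays thus left little room for 2-fold ratios in that group.

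On the 23444 probes good on all 6 arrays, the control and MIA siRNA arrays were the closest of the 15 possible pairs by both measures. They differed by 2-fold at 214 probes (0.913%). The next pair, MIA2 siRNA and LEMD1 siRNA, differed at 217 (0.926%) with a robust SD of 0.345, and the other 13 pairs at 771 to 3137. The comparisons of siRNA arrays with control all share the 1 control array.

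**Figure D1:**
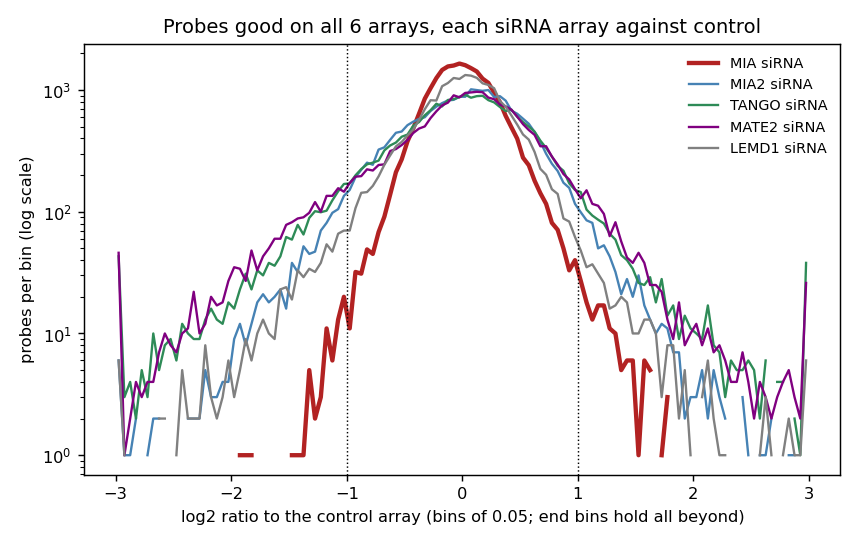
Distribution of the log2 ratio to the control array (horizontal axis, bins of 0.05) over 23444 probes good on all 6 arrays, one line per siRNA array, with the number of probes per bin on a log scale, gaps where a bin is empty and dotted lines at 2-fold. The MIA siRNA line is the narrowest, with 214 probes beyond 2-fold, where the LEMD1 siRNA line has 942 and the MATE2 siRNA line 3085.

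PLA2G4C, a phospholipase that releases fatty acids from membrane lipids, had the largest fall, with 320 on the control, 65.0 on MIA siRNA and 137, 118, 165 and 90.8 on MIA2, TANGO, MATE2 and LEMD1 siRNA (log2 ratio -2.30). Its control level thus stood above all 5 siRNA arrays, and the MIA siRNA level was the lowest of them. GDAP1, a protein of the outer mitochondrial membrane that acts in fission, read 192.5 on the control, 52.5 on MIA siRNA and 145, 158, 180 and 150 on the other 4 in the same order (-1.88). GDAP1 was the only probe good on all 6 arrays whose MIA siRNA level was 2-fold away from that of every other array. It has no second good probe.

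SLC38A3, a glutamine carrier, was at 192 and 60.2 (-1.67), with 95.0, 33.9, 63.9 and 137 on the MIA2, TANGO, MATE2 and LEMD1 siRNA arrays, near background on TANGO siRNA. ITLN2, a lectin, was at 478 and 182 and then 256, 116, 171 and 344 (-1.39). CHI3L1, a secreted chitinase-like glycoprotein, was at 309 and 125 (-1.31), and 219, 112, 109 and 224 on the other arrays. For each of these 3 the control was the highest of the 6 arrays, so the fall on MIA siRNA was shared in direction by every siRNA array.

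INHBC, a subunit of the TGF-beta superfamily, followed another order, with 316 on the control, 127 on MIA siRNA, 95.3 and 100.5 on MIA2 and TANGO siRNA and 311 and 319 on MATE2 and LEMD1 siRNA (-1.31). NOTCH3, a receptor of cell-to-cell signalling, was at 286 and 123 (-1.22), close to 133, 132, 127 and 174 on the other 4. ARHGAP31, which switches off the small GTPases Cdc42 and Rac, was at 294 and 130 (-1.17), but TANGO siRNA read 380. The remaining falls named by the rule ran from -1.19 to -1.02 and were AGA-DT, NPHS1 (nephrin of the kidney filter), SZRD1, BICRA (a subunit of BAF chromatin remodelling complexes), FOXD2-AS1, SLC40A1 (ferroportin, the iron exporter) and ABCG1 (a cholesterol exporter). Among these, AGA-DT, SZRD1 and ABCG1 each had another good probe, at -0.26, -0.09 and -0.02. The genes just inside the limit included ACRV1 and PTPN20, each at -1.01, and just outside lay AFAP1, less than 0.01 short of it, STXBP5L at -0.99 and MYO9A at -0.97.

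RPH3A, which binds Rab proteins on secretory vesicles, had the largest rise, with 62.8 on the control, 216 on MIA siRNA and 84.8, 338, 217 and 143 on MIA2, TANGO, MATE2 and LEMD1 siRNA (1.79). RNF122, a RING finger ubiquitin ligase, was at 112 and 343 and then 151, 521, 340 and 217 (1.61). TBC1D13, an activator of Rab GTP hydrolysis, was at 116 and 302 and then 148, 710, 309 and 194 (1.38). For all 3 the control was the lowest of the 6 arrays, MIA2 siRNA came next and TANGO siRNA was highest.

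A different order was shared by LHFPL5, a membrane protein of hair cell mechanotransduction, SH3BGRL2, LINC02054 and CLCN5, a chloride and proton exchanger of endosomes. LHFPL5 was at 195 on the control, 581 on MIA siRNA and 512, 132, 289 and 471 on MIA2, TANGO, MATE2 and LEMD1 siRNA (1.58). SH3BGRL2 read 130, 354, 297, 79.1, 172 and 257 in the same order of arrays (1.45). CLCN5 read 249, 586, 510, 203, 340 and 497 (1.24). In all 3 MIA siRNA was highest and TANGO siRNA lowest.

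MAGEB18, of the MAGE family of cancer-testis antigens, was at 121 and 309, then 283, 141, 326 and 246 (1.36), and LRRC46 at 100.1 and 248, then 244, 200, 339 and 213 (1.31). For both, the control was lowest and MATE2 siRNA highest. HDAC5, a class IIa histone deacetylase, was at 230 and 548 (1.26) and CAMK2A, a calcium and calmodulin dependent kinase, at 146 and 346 (1.24). LOC101928626 at 1.62, LINC02054 at 1.41, FTHL17, a ferritin heavy chain-like gene, at 1.39 and LINC00702 at 1.22 complete the rises named. Just inside the limit were LINC01140, ZNF397 and INSC, each within 0.01 of it, and just outside lay DYRK1B, WNK2 and EGFR-AS1, likewise within 0.01.

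Place on the array went with most changes. The array has 504 rows and 112 columns of spots, and 3 areas, drawn after the changed probes had been seen, held most of them. The first, rows 200 to 270 of columns 1 to 32, held 65 of the 157 higher probes (41.4%) and 3.92% of the good probes. The second, rows 360 to 400 of columns 1 to 50, held 51 of them (32.5%) and 3.51% of the good probes. The remaining area, rows 401 to 450 of columns 10 to 92, held 60 of the 85 lower probes (70.6%) and 7.02% of the good probes. By name, 6 of the 15 largest rises lay in the first area, 4 in the second and 8 of the 15 largest falls in the area of lower probes.

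The good probes of these areas were shifted as groups, though not each of them. Ratios above 0 made up 76.7% of good probes in the first area and 76.2% in the second, and ratios below 0 made up 70.6% in the area of lower probes. Changed the other way were 1 probe in the first area, 0 in the second and 2 in the area of lower probes. The median log2 ratio over all good probes was 0.30 in the first area, 0.29 in the second and -0.15 in the area of lower probes. Shifts were not limited to these areas. Over 96 blocks of 42 rows and 14 columns, block medians ran from -0.245 to 0.369. Outside the areas, rows 1 to 42 of columns 57 to 70 had -0.245 with 4 lower probes. Rows 169 to 210 of columns 43 to 56, also outside, had 0.249 with 1 higher probe. In the first area it was 0.08, 0.47, 0.28 and 0.09 on the MIA2, TANGO, MATE2 and LEMD1 siRNA arrays against the same control. In the second area it was 0.33, 0.08, 0.38 and 0.20 in the same order of arrays. In the area of lower probes it was -0.09, -0.54, -0.40 and -0.15. Outside the 3 areas lay 22832 good probes, of which 24 were lower (0.105%) and 39 higher (0.171%). The areas were drawn around changed probes, so low shares outside them follow from the drawing. Of the 24, 9 lay in rows 1 to 42, where the median over all columns was -0.125. The part of array position in each gene's ratio was not tested beyond subtracting the median ratio of the good probes within 5 rows and 3 columns of a spot. That left 34 probes lower and 60 higher, of which 29 and 54 had been called without it. After it PLA2G4C was at -2.14, GDAP1 at -2.19, LHFPL5 at 1.57, CLCN5 at 1.34 and NEAT1 at 1.03. MAGEB18 was then at 0.75, LRRC46 at 0.62, CAMK2A at 0.61 and FOXD2-AS1 at -0.66. INHBC, outside the 3 areas, was then at -0.745, and the median around its spot was -0.565.

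**Figure D2:**
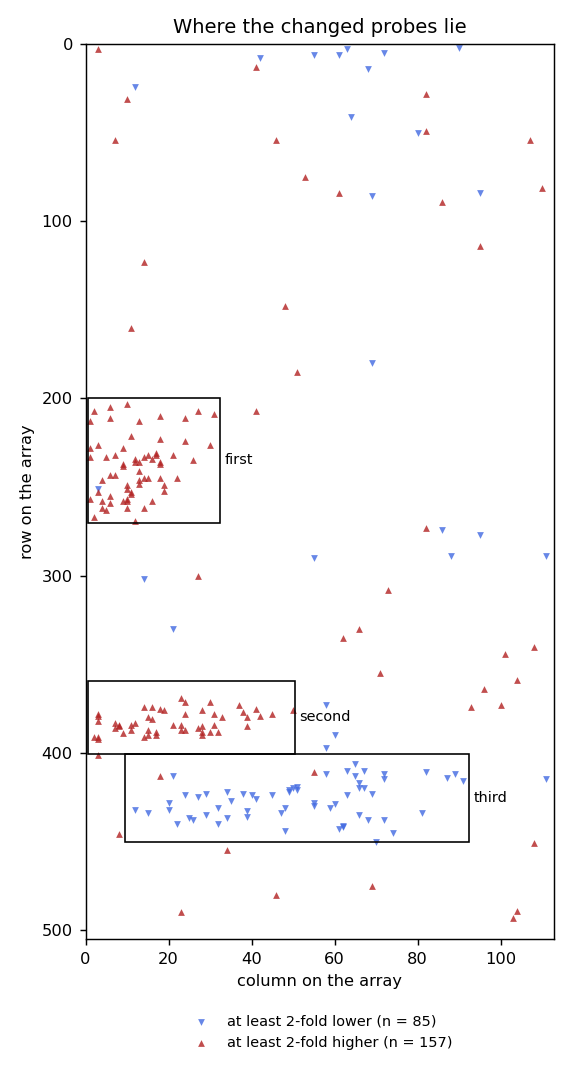
Row and column of each changed probe on the array, blue for at least 2-fold lower on MIA siRNA (n = 85) and red for at least 2-fold higher (n = 157), with boxes around the 3 areas. The first and second boxes hold 65 and 51 of the higher probes and the lowest box holds 60 of the lower ones.

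Some changed probes followed the same course over the 6 arrays. As examples, 4 genes were taken after their values had been seen, and a changed probe was called like one of them where its log2 level, centred on its mean over the arrays, was within 0.35 on every array. Like MAGEB18 were 22 changed probes, 6 with a name, of which 17 lay in the second area, with medians of 1.18, 1.15, 0.24, 1.204 and 0.85 against control on MIA, MIA2, TANGO, MATE2 and LEMD1 siRNA. Among them PREX1, an exchange factor for Rac, at 172 and 392, lay in that area, while FZD3, a Wnt receptor, at 662 and 1488, and PHF19 of the Polycomb group, at 129 and 264, lay outside it in columns 96 and 100. Like ITLN2 were 7, all among the 60 of the area of lower probes, and like RPH3A 4, all among the 65 of the first. Most changed probes of those areas were thus not within the tolerance of either. Over all 23444 probes good on the 6 arrays, changed or not, the tolerance took 42 like MAGEB18, 13 like ITLN2 and 4 like RPH3A. A probe within it must have a ratio near that of its example, so no unchanged probe could be like RPH3A.

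The 9 probes like LHFPL5 did not lie together. They were spread from row 54 to row 490 and from column 13 to column 108, and the median ratio of the spots around them had a median of 0.06. Their medians were 1.53 on MIA siRNA, 1.195 on MIA2, -0.56 on TANGO, 0.60 on MATE2 and 1.12 on LEMD1 siRNA. Those named were LHFPL5, SH3BGRL2, LINC02054 and HLA-DMB, a chaperone of peptide loading on class II molecules, which was at 147 and 303. The brightest member, without a name, was at 939 and 2532. A like probe must have a ratio near that of LHFPL5, so unchanged probes had little room to meet the tolerance. No unchanged probe among the 23444 met it. Within 0.5 in place of 0.35 there were 19 changed probes, with CLCN5, INSC, KIF1A, ASIC4 and TACR1 among the names. GDAP1 and PLA2G4C had no changed probe like them within 0.35.

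**Figure D3:**
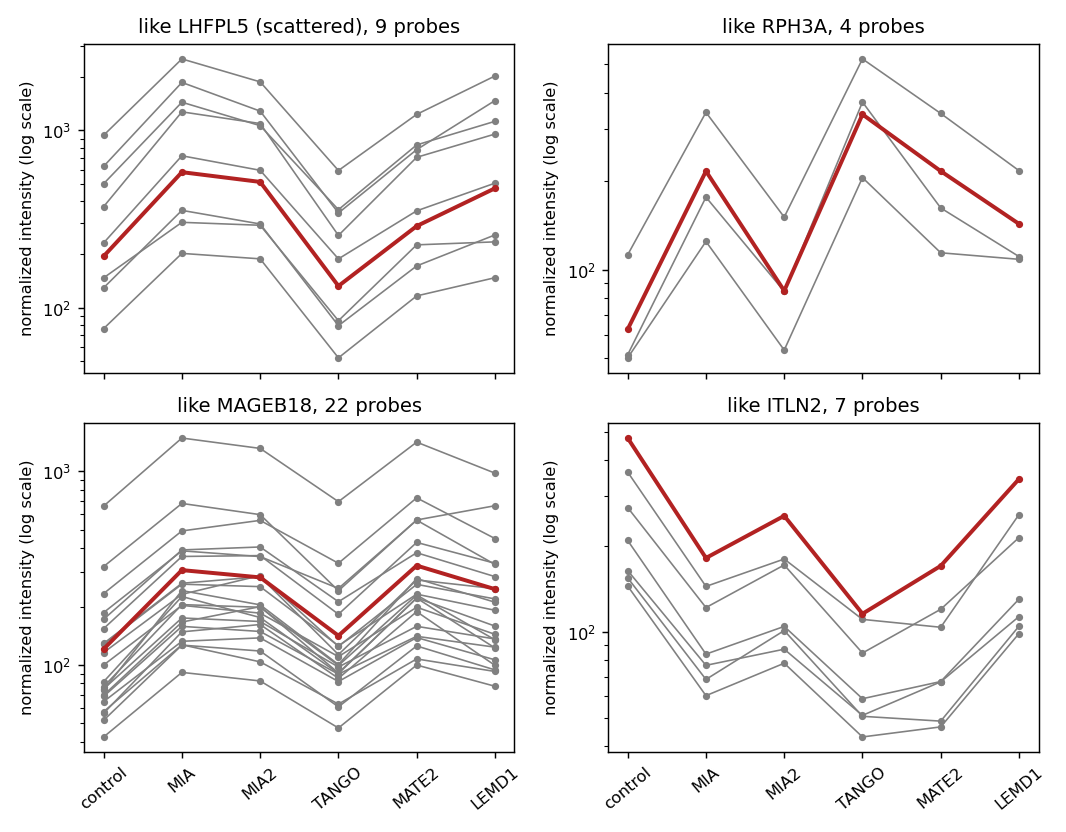
Normalized intensity (log scale) on each of the 6 arrays for changed probes whose course is like that of LHFPL5, RPH3A, MAGEB18 or ITLN2, with the named example in red. The 9 probes like LHFPL5 are highest on MIA siRNA and lowest on TANGO siRNA, and the 22 like MAGEB18 are low on control and TANGO siRNA.

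Among the changed probes, which were chosen for a gap between these 2 arrays, the control stood apart more often than MIA siRNA. Of the 214 changed probes good on all 6 arrays, the control level alone lay outside the range of the other 5 arrays for 133 and the MIA siRNA level alone for 34. For 35 the pair formed both ends of the range, and for 12 neither did. The control was 2-fold from every other array at 8 probes, and MIA siRNA at 1, that of GDAP1. The counts of which array lay outside the range were not taken over all 23444 probes. Over these, the control differed 2-fold from each of MIA2, TANGO, MATE2 and LEMD1 siRNA at more probes than MIA siRNA did. The numbers were 942 to 3085 for the control and 771 to 2390 for MIA siRNA, so the pattern is not shown to be particular to the changed probes.

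Some changed probes had another good probe named for the same gene, though whether both read the same transcript was not tested. For 26 of the changed probes, another 30 good probes were named for the same gene, and 0 of the 30 were 2-fold the same way. The sign was the same for 19 and opposite for 11, and the median size of their log2 ratio was 0.15. EIF2S2, a subunit of the initiation factor that brings the initiator tRNA, went from 66.8 to 167 by its changed probe (1.32) and from 7485 to 7595 by its bright one (0.02). MBD2, which binds methylated CpG sites, went from 74.9 to 175 (1.22) by one and read 2372 on both arrays by the other. SH3BGRL2 was at 1.45 and -0.31, HDAC5 at 1.26 and -0.11, and TTC22 at -1.82 and -0.08. PML, the scaffold of PML nuclear bodies, was at -1.03 by its changed probe and at -0.42 and -0.29 by its other probes.

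The 1 second probe past 1.5-fold belonged to NEAT1, the long noncoding RNA that scaffolds paraspeckles. One NEAT1 probe went from 159 to 322 (1.02) and the other from 153 to 236 (0.63). On the other arrays the probes parted, with 273, 438, 371 and 526 by the first and 634, 94.4, 57.2 and 932 by the second on MIA2, TANGO, MATE2 and LEMD1 siRNA. The paraspeckle proteins NONO and PSPC1, looked up after the values of NEAT1 had been seen, were at -0.01 and -0.08. Of 1983 genes with at least 2 good probes, 0 had every probe changed 2-fold. At 1.5-fold, every probe of NEAT1 and AGPAT3, an acyltransferase of phospholipid synthesis (0.59 and 0.66), was higher, and both of EOLA2-DT (-0.59 and -0.78) were lower.

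Across genes, the log2 ratios of the brightest and the second probe of a gene had a Pearson correlation of 0.05 on MIA siRNA (1983 genes). The same value was 0.34 on MIA2, 0.40 on TANGO, 0.42 on MATE2 and 0.38 on LEMD1 siRNA, where 1893 to 2064 genes entered. Genes are not independent replicates, and all 5 values share the control array. Of genes 2-fold changed by the brightest probe, the second probe was 2-fold the same way for 0 of 12 on MIA siRNA, 39 of 174 on MIA2 and 115 of 397 on MATE2 siRNA.

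**Figure D4:**
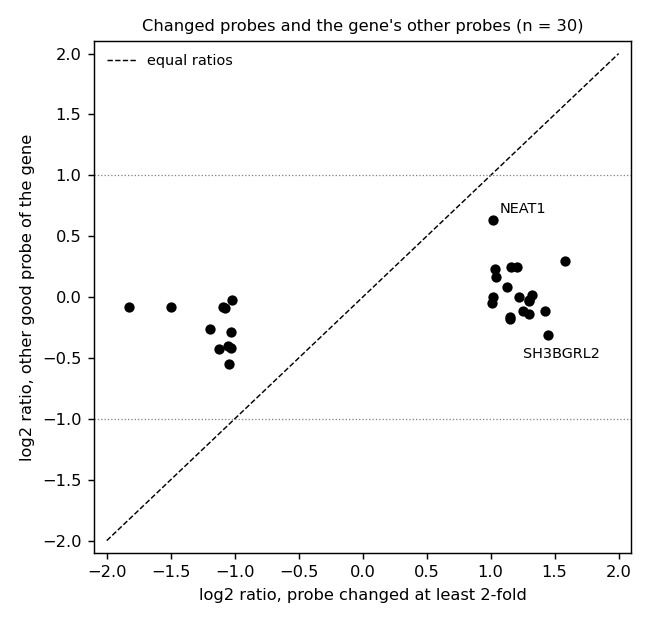
Log2 ratio of MIA siRNA over control for probes changed at least 2-fold (horizontal axis) and for the 30 other good probes of the same genes (vertical axis), with a dashed line of equal ratios and dotted lines at 2-fold. The other probes lie between -0.55 and 0.63, none past 2-fold, with NEAT1 nearest to the line among the higher probes.

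Of 649 genes in 36 lists of pathways, complexes and cell types, 502 were measured, and 0 were 2-fold lower or higher, beside 0.266% and 0.391% of all named genes, shares that would come to only a few genes in 502. At 1.5-fold 9 were lower and 7 higher, or 3.19%, where 4.87% of all named genes were. The 28 lists with at least 10 measured genes had medians between -0.19 and 0.07, beside -0.04 over all named genes, of which 56.6% were below 0. Median signal was 357 for list members and 227 for all named genes.

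Genes for the partners of MIA, and for the export route that its relatives MIA2 and MIA3 serve, were among them. Of 13 genes for fibronectin, its integrin receptors and the adaptors behind them, 10 were measured with a median of -0.18, and 7 were below 0. FN1, fibronectin itself, was at 373 and 255 (-0.55), ITGA5 and ITGB1, which pair as its main receptor, at -0.30 and -0.20, and ITGAV, which pairs with several beta chains, at 302 and 400 (0.41). PXN, paxillin of focal adhesions, was at 0.52. None of these reached 1.5-fold. Of 15 genes of the COPII coat and collagen export, 8 were below 0, from SEC16A, which organizes exit sites, at -0.52 to PREB, the exchange factor that loads SAR1, at 185 and 295 (0.67).

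Genes of squamous differentiation had a median of 0.07 over 20 measured, from GRHL3 at -0.59 to SPRR1B, a cornified envelope precursor, at 50.5 and 78.5 (0.64). Both stood far higher on the TANGO siRNA array, at 912 and 6572. Genes of the ERK pathway outputs had a median of -0.11 over 15, mitosis -0.08 over 23, replication and S phase -0.12 over 20, and cholesterol synthesis -0.05 over 23. For the RNA interference machinery, which the siRNA uses, the median over 11 genes was -0.03, with AGO2, the slicing Argonaute, at -0.54. The largest single ratios of any list were FOSB, an AP-1 subunit of the immediate early response, at 73.4 and 140 (0.93), and BMF, a BH3-only protein that promotes apoptosis, at 176 and 93.9 (-0.90). BMF was lowest of the BCL2 family and inhibitors of apoptosis, of which 14 of 15 were below 0 with a median of -0.13. In the proteasome list 16 of 21 were above 0, with a median of 0.04, though PSMD1 was at -0.63.

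**Figure D5:**
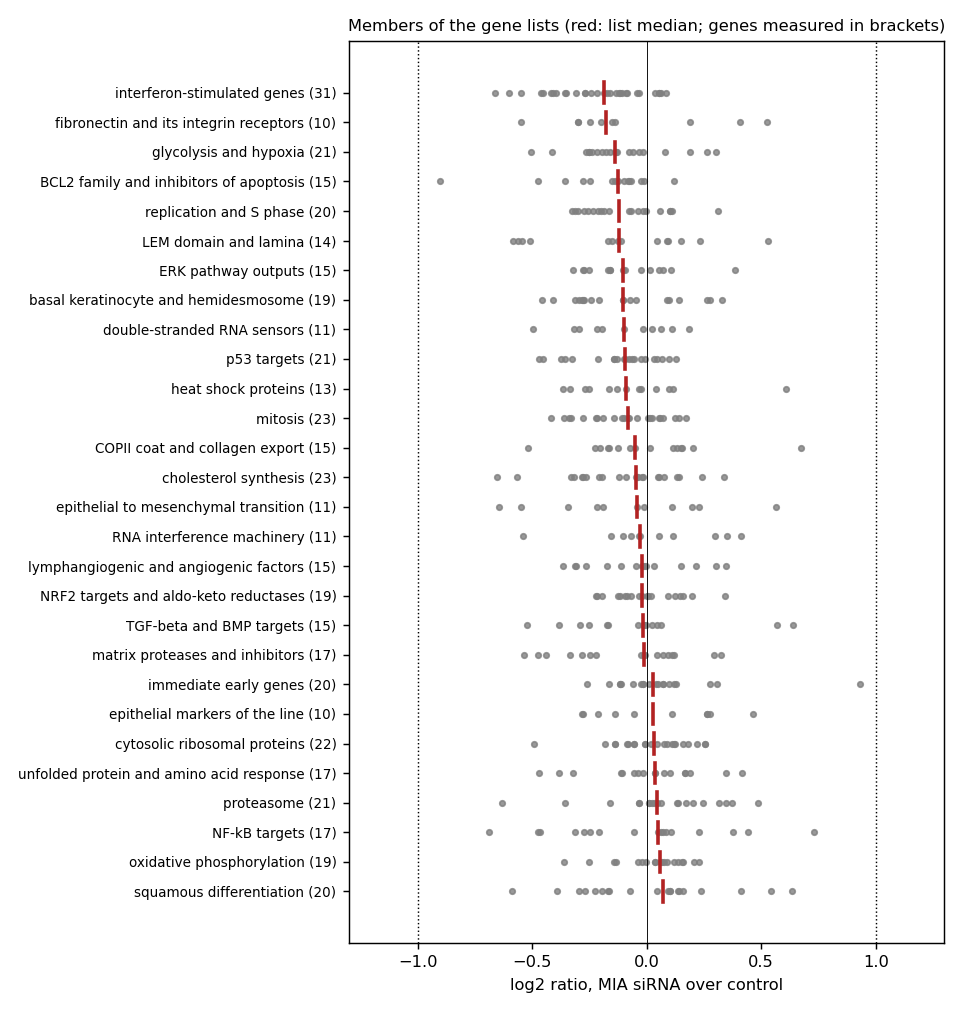
Log2 ratio of MIA siRNA over control for each measured member (grey points) of the 28 gene lists with at least 10 measured genes, with list medians as red bars and dotted lines at 2-fold. All points lie inside the 2-fold lines, and list medians run from -0.19 for interferon-stimulated genes to 0.07 for squamous differentiation.

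Interferon-stimulated genes, which cells switch on after sensing viral or other double-stranded RNA, had the lowest median of the 28 lists, -0.19, and 26 of 31 were below 0. None was 2-fold changed and 2 were past 1.5-fold. TAP1, a subunit of the peptide transporter that feeds class I molecules, went from 505 to 319 (-0.66), IFI44L from 239 to 157 (-0.60), HERC6 from 381 to 260 (-0.55) and IRF7, the regulator of type I interferon, from 398 to 288 (-0.46). MX1 was at -0.40 and PSMB9, a subunit of the immunoproteasome, at 877 and 930 (0.09). The list medians on MIA2, TANGO, MATE2 and LEMD1 siRNA were -0.36, -0.37, -0.66 and -0.35 against the same control array. Against the median of the 5 other arrays in place of control, the list median on MIA siRNA was 0.15. The 11 sensors of double-stranded RNA had a median of -0.10.

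TAP1 and PSMB9, the lowest and highest of these genes, are neighbours on chromosome 6 and are read in opposite directions from starts 488 bases apart. Sequences of the TAP1 and IFI44L promoters are shown since they belong to the members furthest below control. They are the 250 bases before each start in RefSeq on GRCh38.p14, printed in the direction of the gene, chr6:32853705-32853954 on the minus strand and chr1:78620198-78620447 on the plus strand. Capitals mark matches on either strand to GAAANNGAA, the core letters of the interferon-stimulated response element, where matches may overlap.
TAP1: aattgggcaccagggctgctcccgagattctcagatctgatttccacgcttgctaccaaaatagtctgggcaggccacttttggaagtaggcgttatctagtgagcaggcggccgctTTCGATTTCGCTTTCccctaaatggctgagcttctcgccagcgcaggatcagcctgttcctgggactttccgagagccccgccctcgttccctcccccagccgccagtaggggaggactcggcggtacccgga
IFI44L: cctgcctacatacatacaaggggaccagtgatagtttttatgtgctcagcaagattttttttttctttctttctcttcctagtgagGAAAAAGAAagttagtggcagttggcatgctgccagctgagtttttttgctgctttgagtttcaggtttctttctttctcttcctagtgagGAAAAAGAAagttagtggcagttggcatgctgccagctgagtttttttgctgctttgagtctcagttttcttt
These letters were found in both, and in 15 of the 25 measured list members with a promoter in the table. Counted by gene in the same way, they were found in 5.82% of 10219 measured named genes. Over all 35116 promoters of that length, measured or not, the share was 6.88%. The median log2 ratio was -0.12 for the 15 with the letters and -0.28 for the 10 without them. A match is a description of the sequence and not a site of binding.

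Epithelial markers were bright on both arrays. All 10 epithelial markers with a probe were good on both, with brightest probes summing to 43163 on the control and 45370 on MIA siRNA. Of 10 genes each, good spots on control and MIA siRNA numbered 5 and 4 for melanocyte, 4 and 6 for fibroblast, 4 and 4 for endothelial and 6 and 5 for leukocyte markers. The brightest fibroblast probes summed to 620 on the control and 778 on MIA siRNA, with medians of 30.2 and 70.1, and the part of these markers in other results was not tested. The sums for the other kinds were 845 and 870 for melanocyte, 636 and 618 for endothelial and 1234 and 1186 for leukocyte markers. The control median of the fibroblast markers lies under the lowest good signal of that array, 34.2. HSC3 is a single cell line, so these sums describe its RNA and count no cells of other kinds. In RNA from whole cultures, fewer cells with a transcript and less of it per cell cannot be told apart.

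Probes near background on 1 array give only bounds. A good spot on the control and one near background on MIA siRNA was found for 1914 probes, of which 122 were at least 2-fold lower (6.37%), and the reverse for 1611, of which 101 were at least 2-fold higher (6.27%). The bound sets the good level against the higher of the dim spot's own signal and the lowest good signal of its array. HYDIN, a protein of motile cilia, had the largest, with 524 on the control and 16.3, 5.90, 5.20, 6.64 and 13.8 on MIA, MIA2, TANGO, MATE2 and LEMD1 siRNA, and so was at least 16.1-fold lower on MIA siRNA. Its spot lies in the last column of the array, 112. INSM2 at least 4.14-fold, GP1BA at least 3.999-fold and KLK3 at least 3.61-fold were the next lower, the last 2 in rows 436 and 423 within the area of lower probes.

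Spots of control sequences gave the error within an array at their own, bright level. The manufacturer's positive control spots, each sequence printed several times, varied with an SD of 0.18 on the control and 0.17 on MIA siRNA on the log2 scale. Their median signal on the control was 1158, while the changed gene probes had a median of 192 on the brighter array of the pair. The error of dimmer spots within an array was not measured. Quantile normalization by itself holds the median ratio of gene probes near 0. The median log2 ratio of the positive control spots, over 277 good on both arrays, was -0.95 (-0.99 without normalization). Of these, 101 were at least 2-fold lower. On the other arrays the same spots were at 0.03 on MIA2, -0.24 on TANGO, 0.06 on MATE2 and -1.31 on LEMD1 siRNA. The fiducial spots, which mark positions for the scanner, were at -0.07 on MIA siRNA. What the positive control spots were hybridized to, and in what amount, was not given in the sources used here.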

How the data were processed

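RNA of HSC3 cells, labelled with Cy5, was measured on CodeLink Human Whole Genome Bioarrays, 1 array per condition. The sample labels gave the condition of each array. Per the file headers, the deposited scanner files hold spot intensity from CodeLink Expression Analysis 5.0.0.31312, and the value used is the spot mean less its local background. A normalized table of intensity was made by the authors with the Microarray Data Analysis Tool. When all spots of the scanner files were quantile normalized here, each of its 326154 values was matched within 1% plus 1, and it served as an alternative.

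Of 53423 gene probes, 320 masked on any array were left out. Quantile normalization over the 6 arrays, a floor of 1 and log2 followed (Python 3.11.15, numpy 2.4.6, pandas 2.3.3, scipy 1.17.1, statsmodels 0.14.6). Good spots numbered 27545 to 30628 per array. Symbols came from the platform table (23311 probes) or from accessions in RefSeq (649). Probes named for several genes (898) or none (28245) entered counts of probes alone. A gene with several good probes was represented by the one brightest on average, on the log2 scale, over the 6 arrays.

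With 1 array a side no test was run and a fixed 2-fold limit was used. The rule for named genes took genes whose higher signal was above 182, the median of good probes: the 15 largest rises and falls, changed list members, the targets, and the 3 genes just inside and outside the limit at any signal. Of the rises, 1 Y-linked transcript is counted and not named. Some genes that the rule takes are not reported here. NEAT1, AGPAT3, EOLA2-DT, NONO, PSPC1 and genes named for a shared course, a second probe, a bound or their place in a list were picked with their values in view. The members and the lists were chosen with earlier results of these data known. Alternatives were other scalings and background corrections, other filters on flags and signal, a comparator made from the median of the 5 other arrays, other limits, the mean over a gene's probes and block medians over 42 rows and 14 columns. The local median and the condition that every good probe of a gene changed were added after seeing the data.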

Additional observations from a re-analysis of the deposited data

Results flagged for a closer look

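Signal on MIA siRNA where the control was near background was outside the comparisons of good probes. NCKAP1L, a scaffold of actin regulation in blood cells, was at least 4.66-fold higher on MIA siRNA, with 41.98 on the control, 195 on MIA siRNA and good spots from 92.8 to 201 on the other 4 arrays. GPHB5, a glycoprotein hormone subunit, was at least 3.62-fold higher, IL25, a cytokine, at least 3.49-fold, NFASC, a neuronal adhesion protein, at least 3.15-fold and RNF144A, a ubiquitin ligase, at least 3.03-fold. All 5 were taken for a higher level on MIA siRNA, so their shared direction is no result. NCKAP1L, GPHB5 and this NFASC probe lie in rows 387 to 395 and columns 1 to 4 of the array, within the second area of higher probes. IL25 and RNF144A both lie in row 479. A second NFASC probe, also near background on the control, was at least 2.32-fold higher. It lies in row 243 and column 15, within the first area. The part of array position was not tested.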

How the results depend on the processing

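Median scaling of the arrays, quantile normalization of the pair alone, loess on signal and the deposited normalized table gave 85 to 91 lower and 161 to 172 higher probes, with 0 list members changed. Of the 37 genes named as changed, 37, 37, 36 and 37 stayed past 2-fold under these. Lower and higher probes, then genes, numbered 14, 60, 9 and 21 with normexp background correction, 7, 31, 4 and 12 with no background correction, 13, 48, 8 and 15 with 50 added to the signal, and 16, 76, 9 and 27 among bright good probes alone, a set of 13344. Where 1 good flag of the pair sufficed they were 668, 676, 215 and 209 with 8 list members, and with no filter on flags 4938, 5019, 1038 and 1129 with 23 list members and a robust SD of 0.496. Both of these take probes near background, and ABCG1, by another probe, was then at 0.18. At 1.5-fold the numbers were 743, 1019, 302 and 321 with 16 list members, and at 3-fold 9, 10, 6 and 3. Less the block median they were 48, 95, 22 and 28, and less the local median 34, 60, 19 and 22. Of the 37 genes, 20 stayed past 2-fold with normexp, 12 with no background correction, 16 with 50 added, 26 less the block median, 22 less the local median and 30 by the mean over a gene's probes. Where every good probe of a gene had to change, 0 genes were lower and 0 higher, of 1983 with at least 2. Against the median of the 5 other arrays, 115 probes were lower and 392 higher, and 83 genes were lower and 258 higher, with 52 list members. The interferon-stimulated genes then had a median of 0.15, AGA-DT was at 0.085, SZRD1 at 0.12, PTPN20 at 0.31 and NEAT1 at -0.20, and 8 of the 37 genes stayed past 2-fold. Other causes of these moves were not tested. No paired analysis was possible because each condition has 1 array. Signal above background sets a limit on calls, with 22640 probes near background on both arrays, MIA among them.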
